A study of Mus musculus with 6 samples.

Results

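The 4 Hox gene clusters (Hoxa, Hoxb, Hoxc and Hoxd) were followed in the open chromatin of mouse kidney S1 tubules. The members were the protein-coding genes of the GENCODE M21 basic annotation (GRCm38) whose symbol is Hoxa, Hoxb, Hoxc or Hoxd followed by digits, which gave 39 of 21911 coding genes. The regions were the peaks with a summit within 1 kb of a start of these genes or anywhere between the first and the last gene of a cluster. Merged over the 6 peak lists, these were 149 of 99359 regions, of which 109 were among the 74781 that could be tested. The Hoxa cluster held 11 genes and 41 regions, Hoxb 10 genes and 49 regions, Hoxc 9 genes and 34 regions, and Hoxd 9 genes and 25 regions.

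Open chromatin was measured by ATAC-seq in 6 libraries; the method uses the transposase Tn5, which cuts accessible DNA and inserts sequencing adapters. Each library was made from 3 dissected proximal tubules of the S1 segment, the first stretch of tubule after the glomerulus, from wild-type (WT) male C57BL/6 mice that were 7 weeks old at the operation. In 3 libraries the mice had a sham operation (Sham), and in 3 they had lost 1 kidney (unilateral nephrectomy, UNx); tissue was taken at 24 h. No labelled allele or agent was shared by the groups beyond the surgery, and a separate mouse for each library is not stated, so p-values measure the spread between these libraries, which may in part be technical.

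Hox genes encode transcription factors with a homeodomain that give cells a position along the body axis. Each cluster arose by duplication, so genes of the same number (a paralog group) in different clusters are relatives, and low numbers act toward the head and high numbers toward the tail. In the embryo the clusters open stepwise from the low to the high numbers, Polycomb proteins keep the unused genes closed and Trithorax proteins keep used ones open. The kidney forms far back in the trunk, and the Hox11 paralogs (Hoxa11, Hoxc11 and Hoxd11) are required for its formation from the metanephric mesenchyme, from which proximal tubules descend.

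Shown first are 4 stretches of sequence, because they come from strong Hox regions and from those with large differences, each with 121 bases around the summit, plus strand, GRCm38, and with every CG dinucleotide in capitals. They were the region inside the non-coding gene Hotairm1, beside Hoxa2, that passed the test after UNx (chr6:52160698-52160818), the region before Hoxb7 with the largest difference between the groups (chr11:96285343-96285463), the strongest region outside coding transcripts in Hoxc (chr15:102999338-102999458), and the promoter of Hoxd10 (chr2:74691693-74691813).
Hotairm1 region: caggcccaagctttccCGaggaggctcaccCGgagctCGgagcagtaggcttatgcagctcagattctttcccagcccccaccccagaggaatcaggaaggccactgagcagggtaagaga
Hoxb7 upstream: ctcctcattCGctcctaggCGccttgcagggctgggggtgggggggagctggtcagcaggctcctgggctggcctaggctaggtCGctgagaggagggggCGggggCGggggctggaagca
Hoxc8-Hoxc6: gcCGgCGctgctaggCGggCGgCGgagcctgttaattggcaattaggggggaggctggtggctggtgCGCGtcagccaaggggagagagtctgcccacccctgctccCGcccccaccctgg
Hoxd10 promoter: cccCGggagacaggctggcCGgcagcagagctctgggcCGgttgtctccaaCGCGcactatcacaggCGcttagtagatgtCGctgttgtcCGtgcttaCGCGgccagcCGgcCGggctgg
The Hoxd10 stretch held 12 CG dinucleotides and was 67.8% G or C, whereas the Hotairm1 stretch held 3 and was 60.3% G or C. The Hoxc8-Hoxc6 stretch held 8 and was 71.1% G or C.

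Over the 63 Hox regions found among the strongest peaks of all 6 lists, the median G and C content within 100 bp of the summit was 61.7%, against 52.7% over the 53058 such regions of the genome. The median ratio of observed to expected CG dinucleotides was 0.648, against 0.279. Of these 63 regions, 23 lay within 1 kb of a Hox coding start and had a median ratio of 0.752, against 0.812 over the promoter regions of all coding genes. The other 40 lay away from Hox coding starts and still had a median ratio of 0.549. By these medians, Hox regions away from Hox coding starts were richer in CG than open regions of the genome as a whole. Some of the 40 lay at other starts, such as a region 131 bp from the start of the coding gene 5730596B20Rik. The ratio of 0.549 is therefore not that of regions away from every start.

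A set of 3 strings was sought on both strands within 100 bp of the summits of the same 63 regions. The core of the site of CTCF, the insulator protein that divides Hox clusters into domains (CCA, any 2 bases, AG, any 2 bases, GGC), was found in 3 regions (4.76%), against 8.81% of all such regions. They are shown because they mark where this string falls in the clusters, with its fixed bases in capitals and 8 bases on either side, read on the strand that holds the match.
Hoxd3 gene span (chr2:74715913-74715940, plus strand): agctttgtCCAggAGgaGGCgctgtagg
Hoxa7 non-coding start (chr6:52221801-52221828, minus strand): agaaaattCCAggAGatGGCagtgtggc
Hoxa10 distal promoter (chr6:52240533-52240560, minus strand): cgcagccgCCAcgAGatGGCgcactccc
The string TGATTNAT, bound by PBX and HOX proteins together, was in 0 of 63 windows, against 2.82% of all such regions, and the repeat bound by retinoic acid receptors (GNTCA, 6 bases, GNTCA) was in 0 of 63, against 0.852%. Over the promoter regions of all coding genes the shares were lower, at 3.33% for the CTCF core, 0.657% for TGATTNAT and 0.333% for the repeat. The CTCF core was in 4.35% of the 23 Hox regions at Hox coding starts and in 5.00% of the 40 away from them. A match is only a match of letters in these windows.

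A peak with a summit within 1 kb of a coding start was found in all 6 lists for 28 of the 39 Hox genes (71.8%), against 58.5% of all coding genes. In a chosen list of 107 other homeobox and Pax genes, it was found in all 6 for 34 (31.8%). This chosen list leaves out the cofactor genes of the PBX, MEIS and PKNOX families, of which 8 of 9 had such a peak in all lists. Its share is therefore not that of all homeobox genes outside the clusters. Another 5 Hox genes had such a peak in 1 to 5 lists. The last 6, Hoxb1, Hoxb3, Hoxb13, Hoxc6, Hoxc12 and Hoxd12, had one in no list, against 34.7% of all coding genes and 30 of the 107 genes of the chosen list. In Hoxa, 9 of 11 genes were open in all lists and none was without a peak in every list. In Hoxb the count was 7 of 10, in Hoxc 6 of 9 and in Hoxd 6 of 9.

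**Figure D1:**
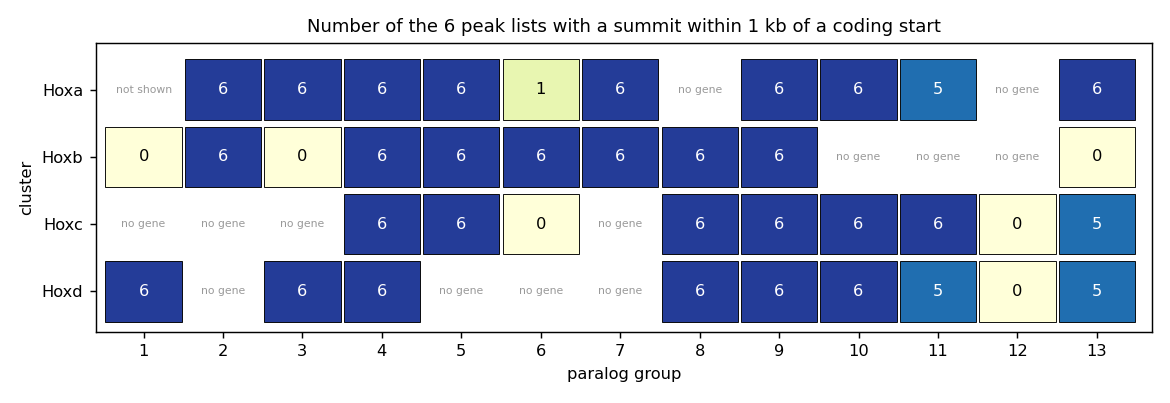
Number of the 6 peak lists (3 Sham, 3 UNx) with a summit within 1 kb of a coding start, for each Hox gene by cluster (rows) and paralog group (columns). Groups 2, 4, 5, 7, 8, 9 and 10 are at 6 throughout, while the 9 genes of groups 11 to 13 hold only 2 squares at 6; 1 square is not shown.

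Presence fell off at the highest paralog numbers. Of the 12 genes of groups 1 to 4, which pattern the head end, 10 had a peak in all 6 lists, as did 16 of the 18 genes of groups 5 to 10, but only 2 of the 9 genes of groups 11 to 13 did. The mean share of the 2 kb around the best start that lay inside peaks was also lower at the tail end. Its median over genes was 35.5% in groups 1 to 4 and 33.7% in groups 5 to 10, and 22.1% in groups 11 to 13, where no gene passed 30.1%. In each of the 6 libraries the median of groups 11 to 13 was the lowest of the 3 sets, but in the third UNx library it was close, at 37.3%, against 38.0% for groups 5 to 10 and 49.2% for groups 1 to 4. Every gene of groups 2, 4, 5, 7, 8, 9 and 10 had its peak in all lists, and group 10 (Hoxa10, Hoxc10 and Hoxd10) had the highest mean share covered, 50.1%. This presence depends on the 1 kb window and on counting any coding start. At its principal start alone Hoxa9 had a peak in 4 lists. Within 500 bp Hoxc9 had one in 0 lists, Hoxb8 in 1 and Hoxc5 in 2, while 19 Hox genes kept one in all 6.

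The peaks of groups 11 to 13 mostly ranked below the median peak of their list. For Hoxa13, which patterns the limbs and the urogenital tract, the best summit had a −log10 q of 4.58, 3.32 and 6.98 in Sham and 3.09, 4.60 and 6.88 in UNx, where the median peaks of the same lists stood between 12.1 and 26.5. For Hoxa11 it was 7.37, 2.54 and none in Sham and 9.98, 9.03 and 16.1 in UNx. For Hoxd11 it was none, 6.01 and 6.73 in Sham and 7.58, 5.30 and 9.88 in UNx. Thus 2 of the 3 Hox11 paralogs each missed 1 Sham list and were weak in the rest. Hoxc11 was the strongest of the 3 in 5 lists, with 10.8, 1.33 and 12.5 in Sham and 12.8, 21.7 and 40.0 in UNx, and its value in the second Sham list lay near the weakest value that list holds, 1.30. Hoxc11 was the only one of these 9 genes above a list's median, in UNx lists 2 and 3. Hoxc13, known from hair, had 4.97, none and 3.99 in Sham and 2.84, 5.49 and 17.7 in UNx. Hoxd13, a gene of digits and the urogenital tract, had 5.85, 7.99 and 5.93 in Sham and none, 5.18 and 6.14 in UNx. Below the 1 kb threshold the member nearest to it by its median distance was Hoxc9, whose nearest summits lay 612 to 630 bp from the start, and just beyond it was Hoxb1, whose nearest summits lay 1059 to 1644 bp away.

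The genes without a peak at their coding start were not alike. Around Hoxb13, which sits apart from the rest of its cluster, no list held a summit nearer than 6689 bp. For Hoxc12 the nearest summit was 6197 to 6447 bp away in 5 lists and 1664 bp in the third UNx list. For Hoxd12 it lay 1843 to 1857 bp away in 5 lists and 7359 bp in the first UNx list. Hoxc6 was a different case, because the gene has annotated non-coding transcripts, one of which starts at position 102998257 of chromosome 15, and this start had a peak in all 6 lists, with a −log10 q of 24.1, 13.1 and 12.3 in Sham and 14.7, 37.2 and 39.1 in UNx. Hoxb3 likewise had a non-coding start, at 96340945 of chromosome 11, with a peak in all lists, of 5.64, 6.88 and 9.42 in Sham and 9.28, 16.0 and 18.3 in UNx. Counted over every annotated transcript, an alternative added after the data were seen, 30 genes had a peak in all lists and 3 (Hoxb13, Hoxc12 and Hoxd12) in none. Hoxa6, with 1 list, had its single peak in the third UNx library (−log10 q 3.91), while next to it Hoxa7 had 34.2, 18.1 and 35.7 in Sham and 23.9, 43.3 and 74.6 in UNx. Hoxb2, between Hoxb3 and Hoxb1 without peaks, had 9.12, 2.93 and 9.68 in Sham and 4.39, 20.3 and 20.5 in UNx. Hoxc8, before Hoxc6, had 11.2, 9.34 and 17.4 in Sham and 7.22, 6.29 and 24.6 in UNx.

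Hox peaks were narrower than their lists as a whole, with a median width of 278 to 365 bp, against 342 to 422 bp, and narrower in each of the 6 lists. Their median percentile rank, where 100 is the strongest peak of a list, was 43.0 to 49.0 over the 6 full lists, and 9.35% to 15.0% of them stood in the strongest 25% of their list. Over the tested regions, ranked within the 77355 strongest peaks of each list, the median percentile was 35.2, against 48.4 over all tested regions, and at Hox promoters it was 48.6, against 85.7 over the tested promoters of all coding genes. So a typical Hox promoter was open in every library, but it ranked well below the typical promoter.

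Although single peaks were modest, the clusters were dense in them. In Hoxa (chr6:52155590-52260880, 105 kb), the share of bases inside peaks was 13.6%, 11.1% and 14.2% in Sham and 12.6%, 14.7% and 18.9% in UNx, where the genome-wide share was between 1.20% and 1.91%. In Hoxb (chr11:96194316-96368256, 174 kb) it was 7.90%, 6.17% and 8.61% in Sham and 9.13%, 10.4% and 11.9% in UNx. In Hoxc (chr15:102921103-103036852, 116 kb) it was 9.05%, 5.97% and 9.76% in Sham and 8.53%, 10.4% and 13.1% in UNx. In Hoxd (chr2:74668310-74765142, 96.8 kb) it was 10.3%, 9.19% and 12.2% in Sham and 10.6%, 10.9% and 15.4% in UNx. The flanks of 100 kb on either side were at 1.50% to 6.04% over the clusters and libraries, and in no library did a cluster's flanks reach the share of the cluster itself.

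The Hoxb cluster was the 1 of the 4 in which the 3 UNx libraries all lay above the 3 Sham libraries, with 7.56% ± 1.25 in Sham and 10.5% ± 1.38 in UNx (SD, n = 3 each). In the other 3 clusters the groups overlapped: the difference was 2.46 points in Hoxa, Hoxc was at 8.26% ± 2.02 and 10.7% ± 2.31, and Hoxd at 10.6% ± 1.52 and 12.3% ± 2.71. The share of the genome covered also differed between lists, at 1.55%, 1.75% and 1.91% in UNx and 1.65%, 1.20% and 1.67% in Sham, and there the groups overlapped. Divided by the genome-wide share of the same list, a step added after the data were seen, Hoxb was covered 4.80, 5.16 and 5.16 times as densely as the genome in Sham and 5.90, 5.93 and 6.21 times in UNx, so the groups still did not overlap. On that scale Hoxa was at 8.68 ± 0.523 and 8.81 ± 0.949, Hoxc at 5.45 ± 0.432 and 6.11 ± 0.688, and Hoxd at 7.08 ± 0.743 and 7.04 ± 0.944. These shares were described and not tested.

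**Figure D2:**
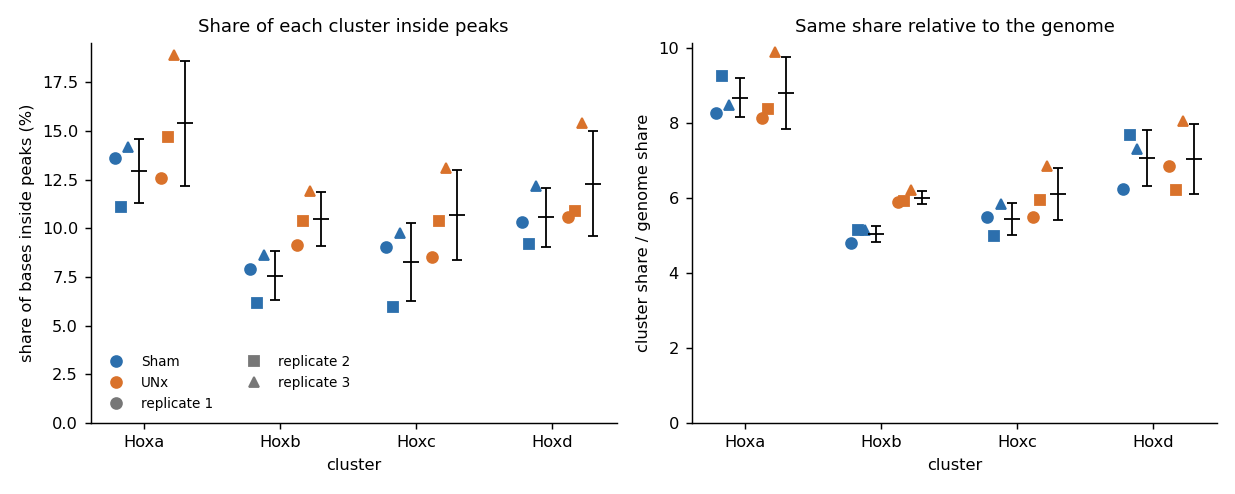
Share of the bases of each Hox cluster inside deposited peaks (left, percent) and the same share divided by the share of the genome covered in the same list (right), for 3 Sham (blue) and 3 UNx (orange) libraries, with mean and SD in black. In Hoxb the UNx libraries (9.13% to 11.9%) all lie above Sham (6.17% to 8.61%), and on the right Hoxd is level between the groups.

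The longest empty stretches lay at different places in the 4 clusters. In Hoxb, 33.3 kb from Hoxb13 onward held no peak in any list, and every gene from Hoxb9 to Hoxb4 had its peak in all lists, then Hoxb3 had none and Hoxb2 had 6 lists again. In Hoxd the stretches open in every list were the widest of the 4 clusters, 1.31 kb over the start of Hoxd8 and 1.08 kb over that of Hoxd9, while 9.52 kb before Hoxd1 and 8.59 kb around Hoxd12 held no peak in any list. Presence changed there between Hoxd11, in 5 lists, and Hoxd10, in 6. In Hoxc presence was complete from Hoxc11 onward except at the coding start of Hoxc6, and the longest empty stretch, 18.4 kb, ran from the end of Hoxc5 to the peak at the principal start of Hoxc4 and held the gene's other coding start. In Hoxa the longest empty stretch, 10.1 kb, lay between Hoxa11 and Hoxa13. Over whole clusters, 79.2% of the bases of Hoxa, 85.8% of Hoxb, 84.6% of Hoxc and 82.3% of Hoxd were in no peak of any list, and 8.63%, 4.92%, 3.95% and 6.59% were in peaks of all 6.

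**Figure D3:**
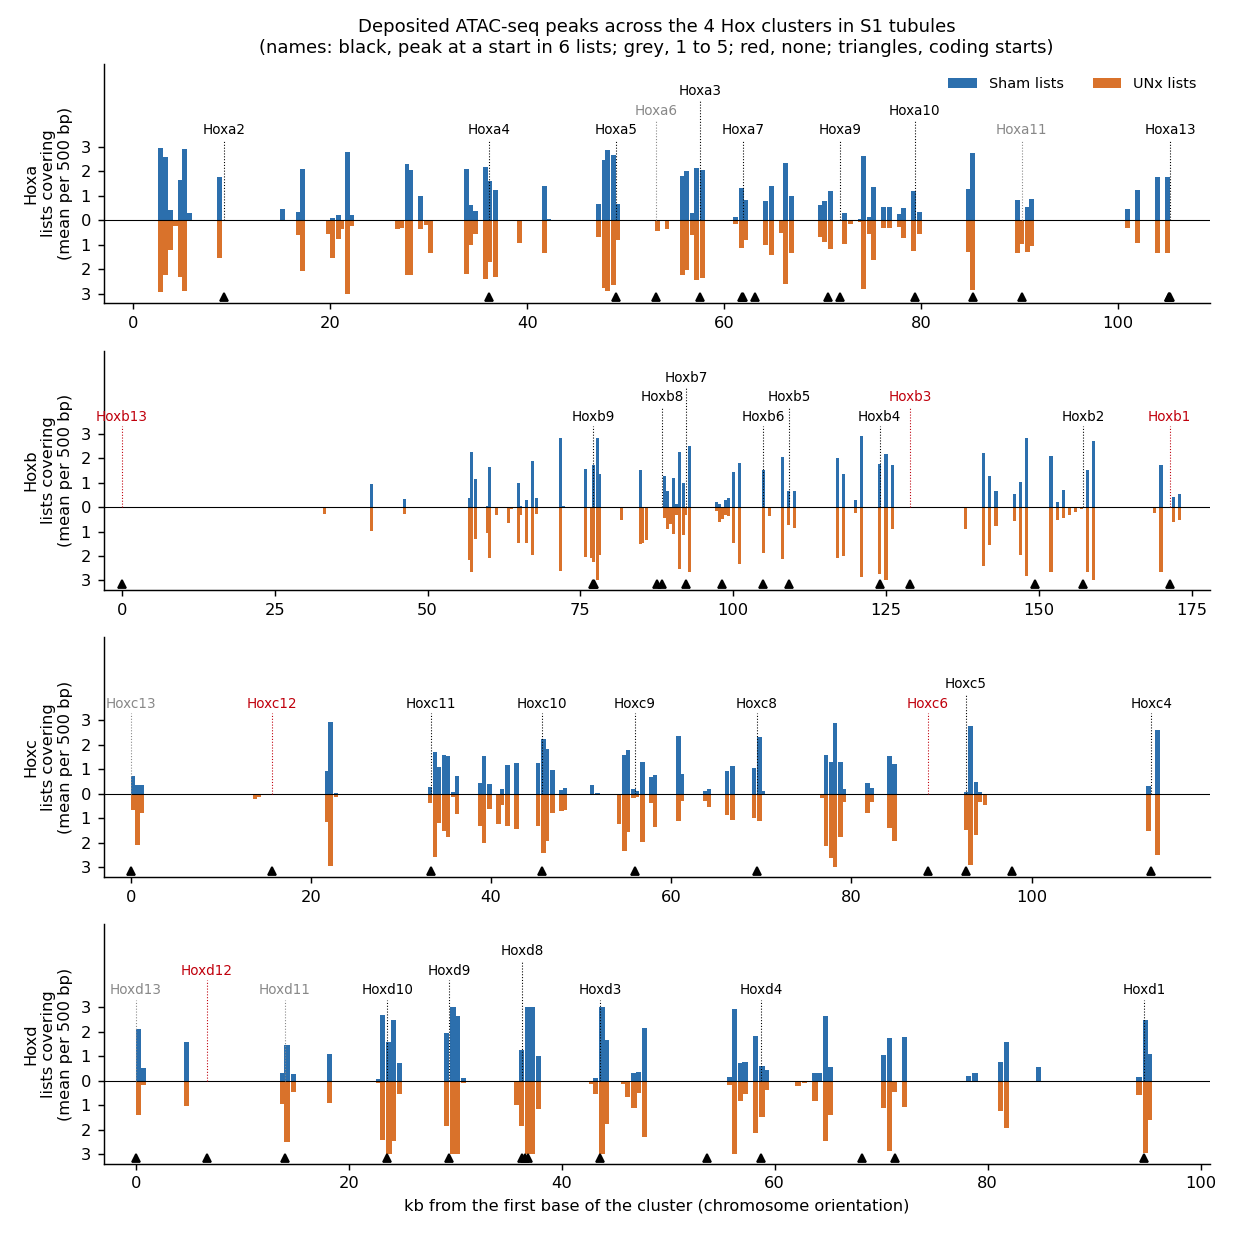
Mean number of Sham lists (blue, upward) and UNx lists (orange, downward) that cover each 500 bp bin of the 4 clusters, against the distance in kb from the first base of the cluster in chromosome orientation. Names stand at 1 principal coding start of a gene, and triangles mark coding starts; 1 gene of Hoxa is not marked. The stretches of 33.3 kb at Hoxb13 and 8.59 kb at Hoxd12 are empty in both groups.

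Of the 149 Hox regions, 60 had their summit outside coding transcripts, 50 in introns, 23 in coding exons and 16 in UTR exons. Of all, 56 lay within 1 kb of a Hox coding start, and 93 lay away from the starts; in Hoxd the counts were 14 and 11. Among the promoters, the distal start of Hoxa10, a gene of the Abdominal-B class that acts in the caudal trunk, ranked highest in Hoxa (chr6:52240370-52241086). It stood at the percentiles 83.3, 84.8 and 90.8 in Sham and 74.3, 86.1 and 78.3 in UNx, and the groups overlapped. The promoter of Hoxb9 was the highest in Hoxb, at 70.9, 77.3 and 74.8 in Sham and 75.4, 68.7 and 82.9 in UNx. That of Hoxc5 was the highest in Hoxc, at 68.5, 68.6 and 63.2 in Sham and 86.8, 82.9 and 74.6 in UNx, and there the UNx libraries all lay above Sham. That of Hoxd10 was the highest in Hoxd, at 67.4, 52.4 and 72.9 in Sham and 83.6, 80.1 and 82.1 in UNx, again with UNx wholly above Sham.

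The next promoters in each cluster were those of Hoxa5, Hoxb4, Hoxc10 and Hoxd4. Hoxa5, required for lung and axial patterning, stood at 63.6, 60.6 and 64.9 in Sham and 57.4, 60.7 and 73.7 in UNx. Hoxb4, known for its role in blood stem cells, stood at 55.6, 50.0 and 55.8 in Sham and 63.9, 68.1 and 75.7 in UNx, with UNx wholly above. Hoxc10, which acts in the lumbar trunk, stood at 53.1, 62.2 and 57.6 in Sham and 56.7, 55.2 and 66.3 in UNx. Hoxd4 stood at 58.7, 68.8 and 76.7 in Sham and 78.9, 57.5 and 77.5 in UNx. None of these 8 promoters passed the test, and the smallest adjusted p among them was 0.104 for Hoxd10 (limma, 3 Sham against 3 UNx, Benjamini-Hochberg over all tested regions).

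The strongest Hoxc region outside coding transcripts had a higher mean percentile, 86.1, than any tested Hox promoter, where Hoxa10 was highest at 82.9. It was a region of 1600 bp between Hoxc8 and the coding start of Hoxc6 (chr15:102998663-103000262), inside non-coding transcripts of Hoxc5 and Hoxc6 and beside a non-coding start of Hoxc6, at 85.5, 83.2 and 84.4 in Sham and 89.5, 82.5 and 91.3 in UNx. It was 3.38 percentile points higher in UNx, not past the test, and lower when peaks were ranked by fold enrichment. In Hoxd no region outside coding transcripts and away from the starts was among the strongest peaks of all 6 lists. One more region, chosen after its values were seen, lay in an intron of Hoxa3 131 bp from the start of the unrelated gene 5730596B20Rik inside the Hoxa cluster. It was the strongest region of the cluster, at 93.2, 89.3 and 93.9 in Sham and 86.9, 91.4 and 88.5 in UNx.

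A set of 6 named miRNA genes lies inside the clusters, and 4 of them had a peak within 1 kb of the hairpin in all 6 lists. They form 2 families with a shared seed (bases 2 to 8, in capitals), miR-10 and miR-196, both known to act on Hox messages, and a lone member. The mature 5p strands and the annotated 3p strand of Mir615 are shown, from RefSeq for GRCm38.p6. The members of a family are nearly identical, while the presence of a peak within 1 kb of the hairpin start differed between them.
miR-10a-5p (Hoxb): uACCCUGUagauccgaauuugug
miR-10b-5p (Hoxd): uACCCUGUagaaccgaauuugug
miR-196a-5p (Hoxb and Hoxc): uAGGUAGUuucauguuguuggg
miR-196b-5p (Hoxa): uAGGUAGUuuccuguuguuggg
miR-615-3p (Hoxc): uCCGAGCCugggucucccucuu
Of the pair with the seed ACCCUGU, Mir10b beside Hoxd4 had peaks with a −log10 q of 34.0, 21.8 and 60.5 in Sham and 50.3, 40.4 and 111 in UNx, the same peaks as at the Hoxd4 promoter, and Mir10a beside Hoxb4 had no summit within 1 kb in any list. The Mir10a hairpin (chr11:96317165-96317274) lay just before the Hoxb4 promoter region (chr11:96318111-96319359), which was in all 6 lists. The contrast within this pair thus rests on the 1 kb window, and both genes lie beside an open Hox promoter. Of the 3 genes with the seed AGGUAGU, Mir196a-1 before Hoxb9 had 46.7, 29.2 and 49.7 in Sham and 55.4, 58.4 and 78.4 in UNx, and Mir196b within the span of Hoxa9 had 24.8, 15.1 and 29.3 in Sham and 30.2, 37.3 and 69.6 in UNx. Mir196a-2, which makes the same mature miR-196a-5p from the Hoxc cluster, had a peak in the third Sham list only (9.05). Mir615, inside Hoxc5, had peaks in all lists but shares its region with the Hoxc5 promoter. A −log10 q depends on depth as well as on enrichment, so these values rank peaks within a list and are not compared between libraries.

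Long non-coding genes of the clusters differed in the same way. Hotair, which lies between Hoxc11 and Hoxc12 and is known for binding Polycomb proteins, had no summit within 1 kb of its start in any list, nor did Hotairm1, Hoxa11os, Hoxb5os or Hoxb3os. Hoxd3os1 and Haglr, which begins beside Hoxd1, had one in all 6. Just outside the clusters, Evx1 beyond Hoxa13 and Evx2 beyond Hoxd13, homeobox genes that continue the tail end of these clusters, had none in any list. Lnpk and Mtx2 on either side of Hoxd, Skap2 beside Hoxa and Cbx5 beyond Hoxc had one in all 6. Smug1, nearer to Hoxc than Cbx5, had none, and beside Hoxb neither Calcoco2 nor Skap1 had one, while Ttll6 had one in 4 lists.

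After UNx, 1 of the 109 tested Hox regions rose and none fell (limma, adjusted p under 0.05). Over all tested regions, 0.435% passed in the upward and 0.353% in the downward direction, so 1 call in 109 (0.917%) is near that background. The region (chr6:52160487-52161103, 617 bp) lay inside Hotairm1, a non-coding RNA read from the strand opposite to the Hoxa genes, and beside Hoxa2, a hindbrain patterning gene. It stood at the percentiles 70.7, 54.0 and 58.4 in Sham and 88.9, 90.1 and 83.6 in UNx. All 3 UNx libraries lay above all 3 Sham libraries, with a difference of 26.5 points between 61.0 ± 8.65 and 87.5 ± 3.50 (SD, n = 3 each; limma adjusted p = 0.0309). The call was lost without any 1 of the 6 libraries, with adjusted p-values from 0.0560 to 0.147, and when peaks were ranked by fold enrichment (adjusted p = 0.376).

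The region 1220 bp before Hoxb7, a gene that acts in the trunk and in the branching ureteric bud, had the largest difference among the tested Hox regions; its interval was also the promoter region of Hoxb7, since a weaker summit lay within 1 kb. It stood at 27.2, 24.6 and 1.94 in Sham and 64.3, 50.6 and 65.4 in UNx, 42.2 points higher, with an adjusted p of 0.0549 in limma, and 12.2 points higher when peaks were ranked by fold enrichment. Regions with their summit nearer to the start of Hoxb7 did not share this difference. The tested ones, at 692 bp and 558 bp, differed by -1.20 and -2.28 points. The region at 58 bp was among the strongest peaks of the third UNx list only (33.6) and was not tested. The next 4 largest differences upward with groups that did not overlap all lay in Hoxc, on either side of Hoxc10. A region 5667 bp beyond the start of Hoxc11 stood at 6.78, 0 and 0 in Sham and 43.6, 26.4 and 52.6 in UNx, where 0 means not among the strongest peaks of that list. Its neighbour at 6052 bp stood at 47.4, 4.12 and 20.8 in Sham and 50.8, 49.7 and 65.3 in UNx. Before Hoxc9, a region 1782 bp away was at 0 in all 3 Sham libraries and at 45.3, 24.4 and 43.1 in UNx, and one at 1015 bp stood at 13.4, 18.9 and 26.5 in Sham and 56.7, 31.4 and 59.1 in UNx. None of these 4 passed the test, with limma adjusted p-values from 0.0809 to 0.155. Of the 2 that could be ranked by fold enrichment, the one at 6052 bp was then 4.51 points higher in place of 31.2, and the one at 1015 bp 4.89 in place of 29.4; the latter was 10.1 points higher with fixed windows around summits.

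Among regions whose groups did not overlap, the largest differences downward were smaller. A region in the coding exon of Hoxb4, 1861 bp from its start, stood at 50.8, 40.3 and 32.9 in Sham and 0, 31.6 and 7.81 in UNx. One in a coding exon of Hoxc9, 4943 bp from the start, stood at 34.7, 28.4 and 32.9 in Sham and 0, 6.55 and 16.2 in UNx. One in a UTR exon of Hoxa10 stood at 22.2, 30.7 and 25.9 in Sham and 0, 5.12 and 5.64 in UNx. The promoter region of Hoxb8 stood at 22.8, 28.3 and 35.4 in Sham and 17.1, 0 and 3.45 in UNx. The strongest region of this set lay in an intron shared by transcripts of Hoxd3 and Hoxd4 and stood at 69.5, 63.6 and 72.4 in Sham and 47.0, 42.7 and 55.1 in UNx. None of the 5 passed the test (limma adjusted p from 0.132 to 0.252), though in each the 3 UNx libraries lay below the 3 Sham libraries.

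Hoxb4 thus showed both directions within its own gene: its promoter was 15.5 points higher in UNx and the region over its coding exon 28.2 points lower, with neither past the test. Ranked by fold enrichment the differences were 8.18 and -20.2. Around Hoxc9 the regions did not follow their place: beside those named above, one 627 bp from the start was 19.6 points lower and one in an intron 29.1 points higher; this pair was chosen after its values were seen.

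**Figure D4:**
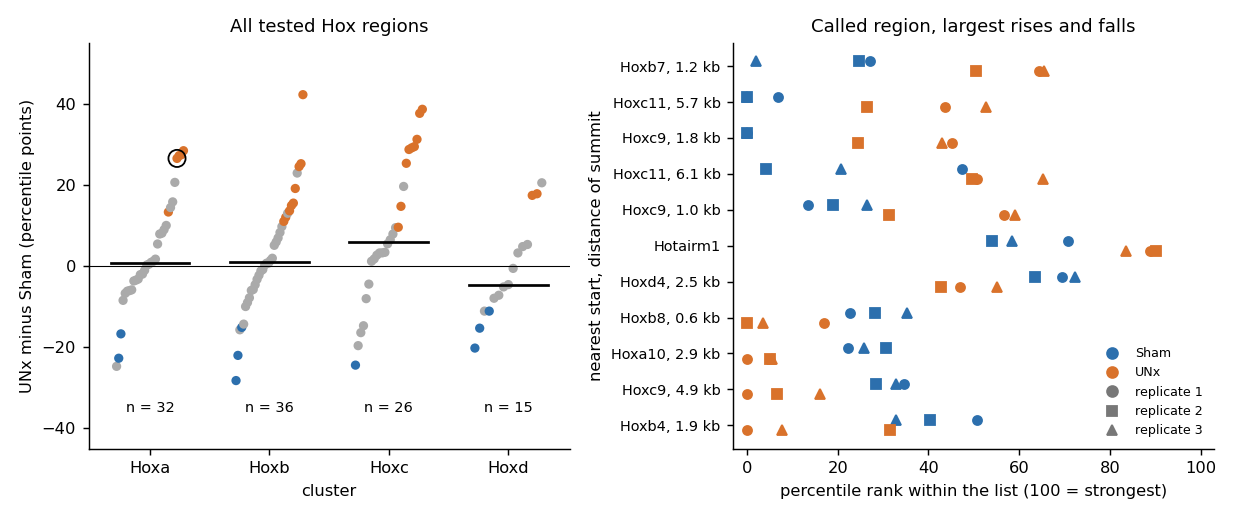
Left, UNx minus Sham difference in percentile points for each of the 109 tested Hox regions by cluster; orange and blue points are regions whose groups do not overlap, bars are medians and the ring marks the region that passed the test. Right, percentile in each library for that region and for the 5 largest differences in each direction among regions whose groups do not overlap, labelled by the nearest start and its distance, or by Hotairm1 for the region inside it. The ringed region is at 83.6 to 90.1 in UNx and 54.0 to 70.7 in Sham.

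Over the whole set the differences leaned upward. The median difference of the 109 Hox regions was 1.76 percentile points, against -0.0112 over all tested regions, and 65 were higher and 44 lower in UNx. In 25 Hox regions (22.9%) all UNx libraries lay above all Sham libraries, against 12.0% of all tested regions, and in 9 (8.26%) all lay below, against 11.7%. An unadjusted p under 0.05 was reached by 27 Hox regions (24.8%), against 18.6% of all. Ranked by fold enrichment instead, 8 of 72 tested Hox regions (11.1%) had UNx wholly above Sham, against 10.1% of all, and the median difference was -1.57, so the lean upward was seen with the −log10 q ranking and not with the fold ranking. The medians of the Hox regions in the single libraries were 34.7, 40.3 and 35.4 in Sham and 39.5, 35.1 and 45.2 in UNx, and overlapped.

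The clusters did not lean alike. The median difference was 5.97 points in Hoxc, where 20 of 26 tested regions were higher in UNx, 1.04 in Hoxb, 0.677 in Hoxa and -4.57 in Hoxd, where 9 of 15 were lower. Within Hoxd, values differed in both directions: the Hoxd10 promoter was 17.8 points higher in UNx, and the upstream promoter of Hoxd3, at 70.0, 71.0 and 68.4 in Sham and 60.3, 49.9 and 53.3 in UNx, was 15.3 points lower (limma adjusted p = 0.197). Whether the clusters differ in their response was not tested. Among the 30 tested Hox promoter regions the median difference was 1.13 points, against -0.180 over the 12184 tested promoter regions of all genes, and none passed the test.

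The partners of Hox proteins mostly had open promoters. Of 9 cofactor genes of the PBX, MEIS and PKNOX families, which bind DNA together with Hox proteins, 8 had a promoter peak in all lists and none of those passed the test, with a median difference of 1.57 points. Pknox1 had a mean percentile of 98.4, and Meis2 had the lowest of the 8 tested genes, 53.2. Of 24 Polycomb genes, 23 were open in all lists, and the median difference was -2.04 points. The promoter of Mtf2, an accessory subunit of Polycomb repressive complex 2, fell: it stood at 93.0, 94.1 and 97.4 in Sham and 83.6, 82.2 and 82.3 in UNx (limma adjusted p = 0.0299). This call was also lost without any 1 of the 6 libraries, with adjusted p-values from 0.0547 to 0.154, and with all 6 libraries under each ranking or model alternative that gave it a value except fixed windows (0.0310), with limma adjusted p-values from 0.0608 to 0.186. Of all 12184 tested promoter regions, 30 fell and 21 rose. Among the other tested Polycomb genes, Pcgf2 was the lowest, at a mean percentile of 22.6, and Phc2 the highest, at 98.5.

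All 18 genes of the Trithorax, demethylase and insulator list had a promoter peak in all lists and none passed the test, with a median difference of -1.15 points; Wapl, a release factor of cohesin, had the highest mean percentile, 98.7, and the demethylase gene Kdm6b the lowest, 38.5. Of 11 upstream regulators, 7 were open in all lists and none passed the test. The retinoic acid receptor gene Rarb was the highest of them, at 91.7, and Of the Cdx genes, which switch on Hox genes in the early embryo, Cdx1 and Cdx2 had no peak in any list, and Cdx4 had one in all 6 at a mean percentile of 20.7. Of 11 kidney partners and targets, 6 were open in all lists and none passed the test. Sall1 was the highest of the tested ones, at 91.5. Six2 and Gdnf, genes of the embryonic nephron progenitors through which the Hox11 proteins act, had a peak in 4 lists and in none.

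The tissue label was checked against marker genes. Of 10 S1 markers, 9 had a promoter peak in all lists, with mean percentiles from 65.1 for Slc22a6 to 95.2 for Slc4a4, and Slc22a8 had one in no list. None of the 4 immune markers had a peak in any list, and 1 of 5 endothelial markers had one in all lists, Kdr, at a mean percentile of 3.60. Markers of other cells were present in part: 2 of 5 stromal, 3 of 4 podocyte, 2 of 3 loop of Henle and 3 of 7 distal tubule and collecting duct genes had a peak in all lists. Some of these ranked within the range of the S1 markers: Scnn1g was at a mean percentile of 89.9, Pdgfra at 86.3, Aqp3 at 83.6, Umod at 67.4, Calb1 at 65.6 and Col1a1 at 65.1. Of the genes of other cells, the podocyte gene Synpo rose after UNx, from 52.4, 46.6 and 40.1 to 71.7, 80.8 and 80.0 (limma adjusted p = 0.0373), a call that was lost without any 1 library. Summed over the 5 endothelial genes, the percentiles came to between 23.5 and 39.8 in the Sham libraries and between 0 and 4.39 in UNx, and the groups did not overlap; Kdr and Flt1 were at 0 in all UNx libraries. The loop of Henle sum was also lower, at 119 to 125 in Sham and 84.4 to 113 in UNx. The S1 sum was 771 to 782 in Sham and 760 to 771 in UNx. The podocyte sums overlapped, at 110 to 150 and 137 to 163, as did the stromal and distal ones. The part of other cells in the Hox differences was not tested. An open promoter is also not a measure of transcription, and fewer cells with an open site cannot be told apart from a less open site in each cell.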

How the data were processed

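Per the submitters' processing notes, cutadapt 3.4, Bowtie, SAMtools, Picard and MACS2 2.2.7.1 were used with the build mm10; the settings, and the filter behind the lists, are not given in the sources used here. The authors deposited 1 narrowPeak list per library, with no pooling. For every summit the deposited lists give its fold enrichment as a ratio, its −log10 p-value, its −log10 q-value, its score and its offset in the interval; positions came from the offset, and the score and p-value were not used. The authors' values per summit served only to rank, filter or describe peaks within a list. The lists held 97834, 77355 and 96970 peaks in Sham and 93583, 100999 and 98214 in UNx; they hold no read counts, so the depth of the libraries is unknown and no interval that needs it is given.

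Only the autosomes, X and Y were used, and summits of one interval counted as 1 peak. For the test, the 77355 peaks of highest −log10 q (the size of the smallest list) were kept from every list and ranked as percentiles, with 0 for a region not among them. Intervals sharing 1 bp or more were merged, the best-ranked peak of a list gave the region its value there, and regions present in at least 3 lists were tested over the whole table with limma 3.58.1 in R 4.3.3 (two-sided, with trend and robust eBayes options; p-values adjusted by Benjamini-Hochberg over 74781 regions, threshold 0.05). The fit was tested on simulated data. Presence and covered share used all deposited peaks. As the promoter region of a gene, the highest-ranked region by mean percentile was taken, with a summit within 1 kb of a coding start. Covered share is the percent of bases inside peaks. Other annotation came from GENCODE M21 and miRNA sequences from RefSeq (GRCm38.p6).

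The members, gene lists and named regions were chosen with earlier results of these data known. Values were given for called regions, the 2 highest promoters of each cluster, the genes where presence changes, the 5 largest differences in each direction among regions whose groups do not overlap, the highest region outside coding transcripts of each cluster, and, in other lists, called genes or the highest and lowest. Some items that this rule names are not reported here.

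Replicate numbers recur in both groups. The correlations of the deviations of same-numbered libraries were 0.00819, -0.1 and -0.0496, so the numbers were not taken to pair them.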

Additional observations from a re-analysis of the deposited data

How the results depend on the processing

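Over the alternatives, the count of 1 called Hox region became 0 with all deposited peaks, with the 20000 strongest peaks of each list, with ranks by fold enrichment or corrected for G and C content, without the minimum of 3 lists and without trend or robust variance, 3 with normal scores of the ranks, and from 0 to 0 without any 1 library. Only with fixed windows around summits did it remain 1. The 3 regions called with normal scores were the Hotairm1 region, the region before Hoxb7 and the one 1782 bp before Hoxc9. Over all regions the calls went from 589 to 22 with all peaks, 2 with the 20000 strongest, 3 by fold enrichment, 2 with the G and C correction, 2 without that minimum and 1583 with normal scores, and to between 4 and 76 without 1 library. With the replicate number as a block 0 Hox regions and 56 regions in all were called, and 0 and 0 with the block and the G and C correction; the numbers did not pair the libraries. The median Hox difference was 5.94 with all peaks (2.14 over all regions), 10.6 with the 20000 strongest (12 Hox regions tested) and reversed to -1.57 by fold enrichment, and it lay between 0.628 and 3.94 without 1 library. The cause of these shifts was not tested. Hox genes with a peak in no list fell from 6 to 2 with a window of 2.5 kb and to 3 with every annotated transcript start; those in all lists went from 28 to 22 with a −log10 q of at least 5 and to 19 with a window of 500 bp. The UNx minus Sham difference in covered share lay between 0.699 and 3.86 points in Hoxa, 2.20 and 3.58 in Hoxb, 1.23 and 3.52 in Hoxc and 0.195 and 2.60 in Hoxd without 1 library; the lowest came without the third UNx library in each. Scaled to the genome share of the list it was 1.57 in Hoxb and reversed to -0.0575 in Hoxd. Values under alternatives were taken for 22 single regions, which include the promoters of Mtf2 and Synpo outside the Hox set. Only the Hotairm1 region, Mtf2 and Synpo had a call to lose. Among the alternatives that gave values for single regions, which leave out normal scores, these 3 lost it under all except fixed windows. Under the other alternatives, a kept call status means only that a region without a call stayed without one. Of the 267 values, 218 kept direction and call status, 35 lost the call and 14 reversed. Some that kept both moved far: Hoxa5 went from 0.909 to 20.8 with fixed windows, and by fold enrichment the region before Hoxb7 went from 42.2 to 12.2. The reversals were by fold enrichment at Hoxa5 (-5.92), Hoxb9 (-13.6), Hoxc10 (-4.54) and Hoxc8-Hoxc6 (-0.240), with the G and C correction, with or without the block, at Hoxa5 (-0.198), and without 1 library at Hoxa5 (-0.314 and -3.98, up to 4.20), Hoxb9 (-0.370 and -2.26, up to 4.84), Hoxc10 (-0.525 and -1.69, up to 4.05) and Hoxd4 (-1.46 and -0.563, up to 10.1). Transcript starts and genome scaling were chosen after seeing the data. The lists give no depth, so an absent peak may be one not detected.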
